A study of Mus musculus with 6 samples.

Results

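The 10 genes described here encode the protein parts of the particles that carry lipid in blood, and the 2 factors that load or remodel those particles. They are the apolipoprotein genes Apoa1, Apoa2, Apoa4, Apoa5, Apob, Apoc1, Apoc3 and Apoe, the microsomal triglyceride transfer protein gene Mttp and the phospholipid transfer protein gene Pltp. Members were found by their exact symbol in the deposited table, where each of the 10 had 1 probe set among 22203 with a gene symbol. The livers came from male C57BL/6 mice aged 8 weeks, 3 of genotype WT and 3 of genotype HMGB2-KO, with no surgery, diet or treatment in the labels. HMGB2 is a chromatin protein that bends DNA, and the arrays were meant to screen for genes that depend on it. The sources used here do not say what kind of knockout allele was used, in which cells it acts or whether the WT mice were littermates. Total RNA of whole liver was read on Clariom S mouse arrays after a biotin labelling run in duplicate. The sources do not say how duplicates were combined or that each liver came from a separate mouse, so every p-value here reflects the spread among 6 arrays, part of which may be technical.

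The liver exports triglyceride and cholesterol as very low density lipoprotein (VLDL), a particle built on a single copy of the giant protein APOB. MTTP, in the endoplasmic reticulum, loads lipid onto APOB while it is being made. APOA1 and APOA2 are the main proteins of high density lipoprotein (HDL), which takes up cholesterol from tissues, and PLTP moves phospholipid between particles. The smaller apolipoproteins exchange between particles, where APOA5 promotes and APOC3 restrains the hydrolysis of triglyceride, and APOE is the ligand by which remnants are taken back into hepatocytes.

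Hmgb2, the targeted gene, read 0.38 to 0.62 in the WT arrays and -0.70 to -0.38 in the HMGB2-KO arrays. The difference of -1.01 ± 0.15 (SE) had a limma adjusted p of 0.469, so even the targeted gene did not pass 0.05. The deposited values scatter around 0 for each gene and are read as centred log2 values, though no source states the log base, on which every fold rests. A value thus tells how an array stands relative to other arrays for that gene. It tells nothing of how abundant the transcript is, and levels of different genes cannot be ranked. For the same reason the presence of liver markers could not be checked from the level of any transcript. WT liver 2 stood apart from the other arrays: its column median was 0.26, against -0.05 to 0.01 in the other 5. It also held 70 readings more than 3 log2 units away from every other array, against 17 for WT liver 1, 1 for WT liver 3 and 0 for every HMGB2-KO array. 1 of the 70 belongs to Apoa2.

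None of the members passed the adjusted test, which Hmgb2 did not pass either, and most stood at nearly the same level in both genotypes. 7 of the 10 had a lower mean and 3 a higher mean in HMGB2-KO as deposited, where 77.4% of all probe sets were lower, and on arrays centred on their medians 2 were lower and 8 higher. As deposited, 7 of the 10 differences were smaller than 0.16 on the log2 scale. limma called 0 of 10 members at an adjusted p of 0.05, with adjusted p between 0.852 and 0.995, and 0% of all probe sets passed that threshold. At an unadjusted p under 0.05, 1 member was lower in HMGB2-KO and 0 were higher, against backgrounds of 4.85% of all probe sets on the lower and 0.0721% on the higher side. That member, Pltp, was also the one whose groups did not overlap, a condition that 10.9% of all probe sets met on the lower and 0.779% on the higher side. A share of 1 in 10 is near these backgrounds for the lower side.

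**Figure D1:**
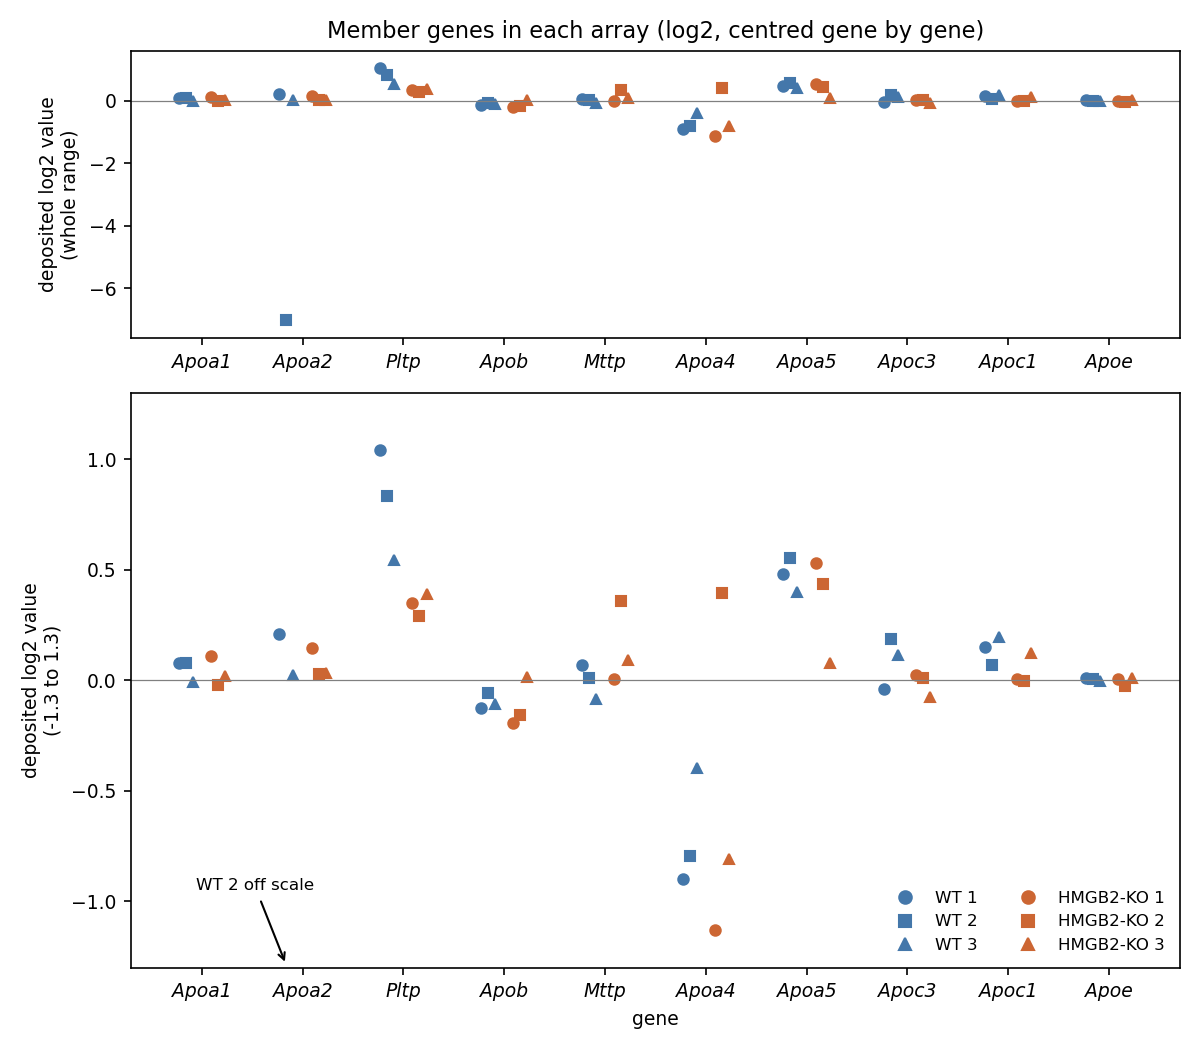
Deposited log2 values of the 10 member genes in the 6 arrays, centred gene by gene, over the whole range (top) and between -1.3 and 1.3 (bottom). Blue is WT, orange is HMGB2-KO, and the marker shape is the number in the sample title. Pltp is lower in all 3 HMGB2-KO arrays, Apoa4 and Mttp are highest in HMGB2-KO liver 2, and Apoa2 has a single reading of -7.00 in WT liver 2.

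Among the HDL genes, Pltp lay lower in every HMGB2-KO liver. Pltp read 1.04, 0.83 and 0.54 in WT livers 1 to 3, and 0.35, 0.29 and 0.39 in HMGB2-KO livers 1 to 3. The WT livers were spread over 0.50 log2 units and the HMGB2-KO livers over 0.10, and the groups stood apart. The knockout mean of 0.34 ± 0.05 (SD, n = 3) was 1.38-fold below the WT mean of 0.81 ± 0.25. The difference was -0.46 ± 0.16 (SE, 95% interval -0.84 to -0.083), with a limma unadjusted p of 0.023 and an adjusted p of 0.852. Relative to the median gene, which itself stood at -0.12 as deposited, Pltp lay at -0.34. With arrays centred on their medians the difference was -0.34 (limma unadjusted p 0.0587), and the groups still did not overlap, whereas after quantile normalization they did (-0.34, limma unadjusted p 0.127). Left out in turn, WT liver 1 (unadjusted p 0.0903 in limma), HMGB2-KO liver 1 (0.0548) or HMGB2-KO liver 2 (0.0681) took Pltp past 0.05. Groups that stand apart cannot come to overlap when an array is left out. In bulk liver, fewer cells of a type and less RNA per cell cannot be told apart.

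**Figure D2:**
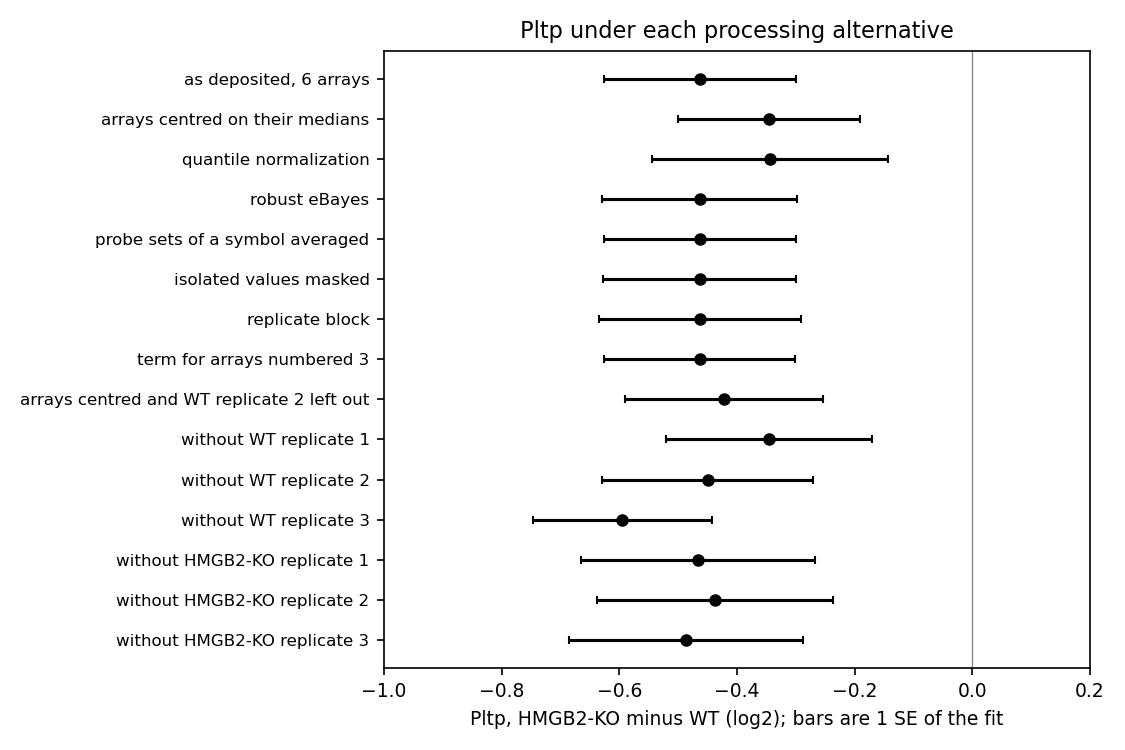
Difference of Pltp between HMGB2-KO and WT (log2) in the values as deposited and under each of the 14 alternatives, with bars of 1 SE of the fit. Every value lies below 0, from -0.59 without WT liver 3 to -0.34 on quantile-normalised arrays. Refitting the same values or leaving out single arrays as deposited could not turn the sign.

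Pltp and the gene with the most similar pattern, Pon1, are shown here by their promoters because both stood lower in all HMGB2-KO arrays. Pon1 encodes paraoxonase, an enzyme carried on HDL. The sequences are RefSeq promoter windows in GRCm38.p6, from 250 bases before the annotated start to 50 bases after it, on the strand of the gene. They lie at chr2:164857659-164857958 on the minus strand for Pltp and at chr6:5193897-5194196 on the minus strand for Pon1. Capitals mark matches on either strand to 3 promoter motifs, which do not overlap each other in these windows. They are TATAAA, which can position the polymerase, then CCAAT, which the factor NF-Y can bind, and GGGCGG, which SP1 can bind. The letters were matched anywhere in the window, and whether a match acts in this way was not tested.
Pltp: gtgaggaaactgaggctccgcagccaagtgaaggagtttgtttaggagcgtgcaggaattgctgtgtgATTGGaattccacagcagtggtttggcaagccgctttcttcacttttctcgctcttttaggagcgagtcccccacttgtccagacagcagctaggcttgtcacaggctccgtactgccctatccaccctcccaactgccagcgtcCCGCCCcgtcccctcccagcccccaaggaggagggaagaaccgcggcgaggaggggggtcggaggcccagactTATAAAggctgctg
Pon1: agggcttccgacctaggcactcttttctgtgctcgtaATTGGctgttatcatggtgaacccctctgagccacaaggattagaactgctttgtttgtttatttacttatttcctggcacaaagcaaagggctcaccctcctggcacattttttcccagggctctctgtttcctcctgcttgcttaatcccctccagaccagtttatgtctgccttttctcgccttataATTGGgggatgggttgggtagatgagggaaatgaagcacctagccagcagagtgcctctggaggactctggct
The Pltp window held CCAAT on the opposite strand beginning 182 bases before the start, GGGCGG on the opposite strand 37 bases before it, and TATAAA from base 37 of the transcribed part. The Pon1 window held CCAAT on the opposite strand at 213 and at 23 bases before the start. CCAAT was present in 37.4% of the 32851 promoter windows of the table, GGGCGG in 35.7% and TATAAA in 13.6%. Of the 10 members, 8 had a window in the table, with 12 windows in all, and TATAAA occurred somewhere in those of Apoa2, Apoa5, Apob, Apoe and Pltp. A member was counted if any of its windows matched, while the background shares count single windows, so they are not like for like. Pltp is known as a target of the nuclear receptor LXR, which binds hexamers repeated with 4 bases between them. No member's window held the exact repeat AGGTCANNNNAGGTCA, which 0.0152% of all windows contain, and the single hexamer AGGTCA was found in 1 member, Apoa2, against 16.3% of all windows.

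Apoa1, the scaffold of HDL, was nearly flat over the 6 livers. It read 0.077, 0.076 and -0.0062 in WT livers 1 to 3, and 0.11, -0.022 and 0.019 in HMGB2-KO livers 1 to 3. The groups overlapped, and the difference was -0.013 ± 0.13 (SE, 95% interval -0.31 to 0.29, limma adjusted p 0.990). The whole span of its 6 values was 0.13, and 0.428% of all probe sets spanned less.

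Apoa2, the second HDL protein, had an isolated low reading in WT liver 2. It read 0.21, -7.00 and 0.025 in WT livers 1 to 3, and 0.15, 0.028 and 0.031 in HMGB2-KO livers 1 to 3. With all arrays the WT mean was -2.26 ± 4.11 (SD, n = 3) against 0.07 ± 0.07, a nominal 5.01-fold higher level in HMGB2-KO (2.32 ± 1.72 SE, limma adjusted p 0.852). That size rests on 1 array: without WT liver 2, or with its reading masked, the difference was -0.048 as deposited. Apoa2 in the other 5 arrays ran from 0.02 to 0.21, and the genotypes overlapped.

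The genes of VLDL assembly stood close to each other across genotypes. Apob read -0.12, -0.058 and -0.11 in WT livers 1 to 3, and -0.19, -0.16 and 0.016 in HMGB2-KO livers 1 to 3. HMGB2-KO liver 3 was the highest of the 6 and livers 1 and 2 were the lowest, so that the groups overlapped and the means differed by -0.015 ± 0.13 (SE, 95% interval -0.32 to 0.29). Mttp read 0.067, 0.0087 and -0.085 in WT livers 1 to 3, and 0.0045, 0.36 and 0.092 in HMGB2-KO livers 1 to 3. HMGB2-KO liver 2 was the one liver clearly above the rest. The Mttp difference was 0.15 ± 0.15 (SE, 95% interval -0.19 to 0.50, limma adjusted p 0.869), or 0.051 without HMGB2-KO liver 2.

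Apoa4 was the most variable member apart from the Apoa2 reading. Its protein rides on chylomicrons, VLDL and HDL, and in mouse liver its gene is known to respond strongly to fasting and lipid load. It read -0.90, -0.79 and -0.39 in WT livers 1 to 3, and -1.13, 0.39 and -0.81 in HMGB2-KO livers 1 to 3. The HMGB2-KO livers held both the lowest and the highest value of the 6, a span of 1.52 log2 units within the genotype against 0.51 within WT. The difference was 0.18 ± 0.38 (SE, 95% interval -0.69 to 1.05, limma adjusted p 0.942), and without HMGB2-KO liver 2 it turned to -0.27. 94.0% of all probe sets spanned less than Apoa4 over the 6 arrays.

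The genes that act on triglyceride hydrolysis did not separate the genotypes. Apoa5, an activator of lipoprotein lipase action, read 0.48, 0.55 and 0.40 in WT livers 1 to 3, and 0.53, 0.43 and 0.078 in HMGB2-KO livers 1 to 3. HMGB2-KO liver 3 was the low liver, and without it the difference of -0.13 ± 0.16 (SE, 95% interval -0.51 to 0.25) went to 0.0040. Apoc3, which slows hydrolysis and remnant uptake, read -0.039, 0.18 and 0.12 in WT livers 1 to 3, and 0.022, 0.012 and -0.076 in HMGB2-KO livers 1 to 3. WT livers 2 and 3 lay above all HMGB2-KO livers while WT liver 1 lay among them, and the difference was -0.10 ± 0.13 (SE, limma adjusted p 0.905).

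Apoc1 and Apoe, neighbouring genes of the chromosome 7 apolipoprotein cluster in GRCm38.p6 gene order, differed in how far they varied. Apoc1, whose protein inhibits lipid transfer and receptor binding, read 0.15, 0.067 and 0.20 in WT livers 1 to 3, and 0.0037, -0.0037 and 0.12 in HMGB2-KO livers 1 to 3. Within each genotype the liver numbered 3 was the highest, and the difference was -0.10 ± 0.13 (SE, 95% interval -0.40 to 0.21, limma adjusted p 0.905). Apoe was the flattest member, reading 0.010, 0.00765 and -0.0051 in WT livers 1 to 3, and 0.0061, -0.025 and 0.012 in HMGB2-KO livers 1 to 3. The 6 Apoe values spanned 0.037 log2 units, and 0.0135% of all probe sets spanned less. Its difference was -0.0066 ± 0.12 (SE, 95% interval -0.29 to 0.28), where limma's SE borrows spread from all probe sets and is wider than that of Apoe itself. Apoa1, Apoc3, Apoa4 and Apoa5 follow each other in the same way on chromosome 9, and the values above show Apoa4 high in HMGB2-KO liver 2 where its neighbours Apoc3 and Apoa5 read 0.012 and 0.43, inside the range of the other livers.

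**Figure D3:**
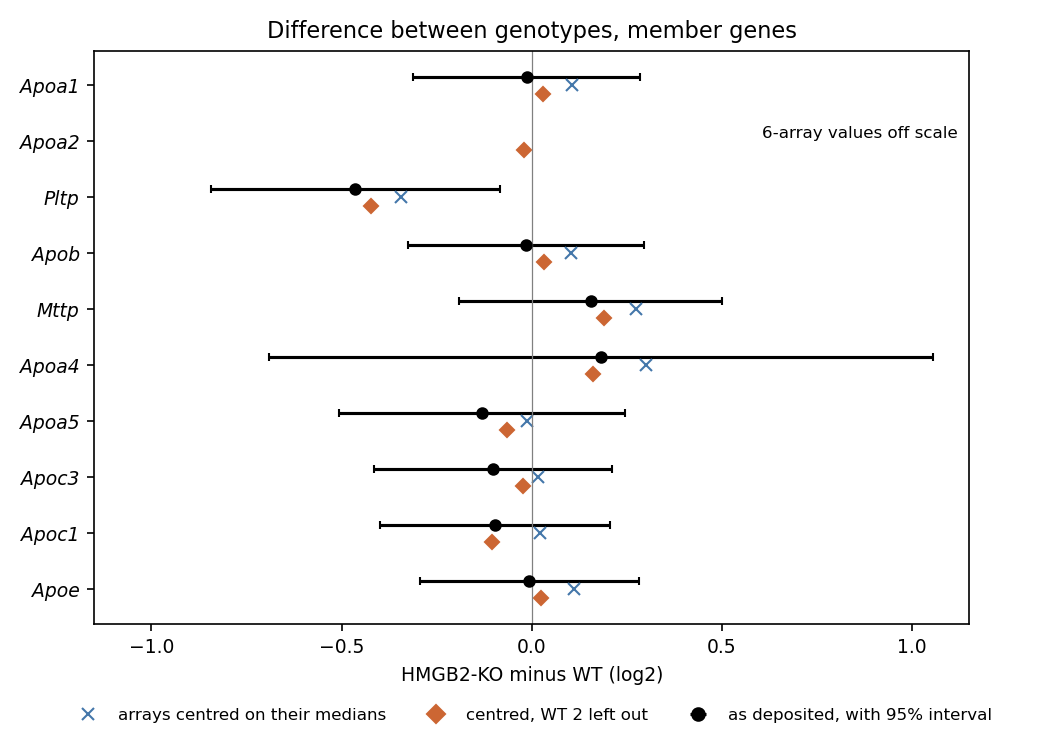
HMGB2-KO minus WT (log2) for each member as deposited with its 95% interval (black), with arrays centred on their medians (blue crosses) and centred without WT liver 2 (orange diamonds). Pltp is the member whose interval excludes 0, and the values of Apoa2 from 6 arrays lie off the scale, at 2.32 as deposited and 2.44 centred.

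Most members did not share the raised level of WT liver 2, which bears on every centred value. Over all probe sets, WT liver 2 stood 0.29 above the median of the other 5 arrays, with quartiles of 0.10 and 0.50. For the members the median was 0.037, and 7 of 10 stood less than 0.1 above the other arrays, against 24.6% of all probe sets. Apoe stood 0.0015 above them, Apoa1 0.057 and Apob 0.067, while Pltp stood 0.44 above. Subtracting the array median therefore placed 8 of 10 members below the array's median gene in WT liver 2, Apoe at -0.25 and Apob at -0.31. As deposited, 8 of 10 members lay above the median gene of the comparison with a median of 0.11 relative to it, and without WT liver 2 the count was 5 of 10. Narrow spans went with this: 5 of 10 members spanned less than 0.3 over the 6 arrays, against 8.52% of all probe sets. The 9 measured hepatocyte marker genes of 10 listed, such as Alb and Ttr, were similar, with a median span of 0.27 and a median of 0.095 in WT liver 2 relative to the other arrays.

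**Figure D4:**
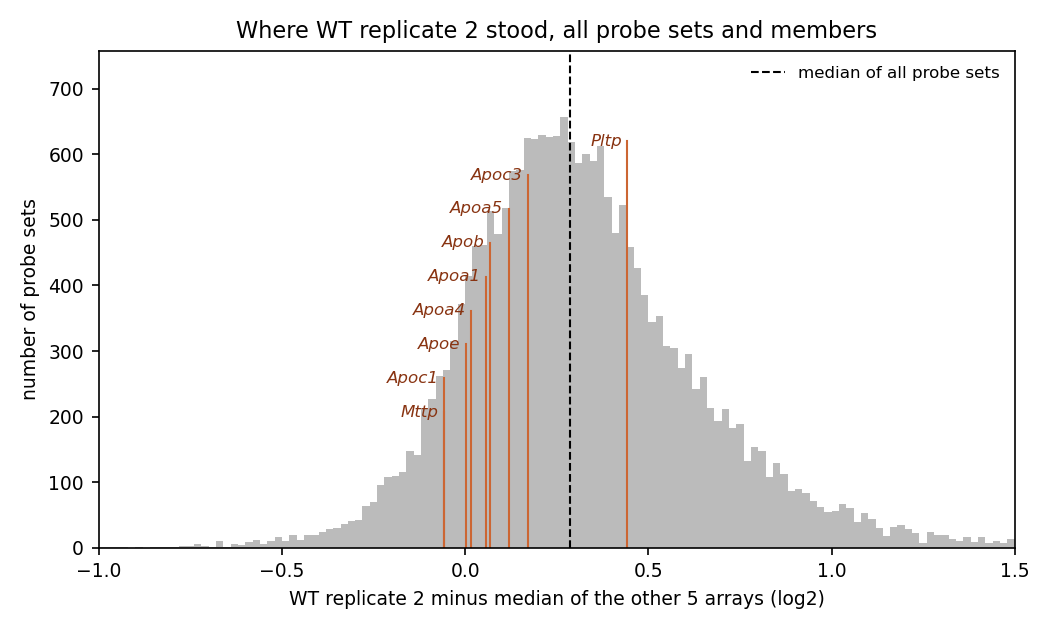
Distribution over all probe sets of WT liver 2 minus the median of the other 5 arrays (log2), with 9 members marked by orange lines whose heights only keep the names apart. The dashed line is the median of all probe sets at 0.29, and 8 of the 9 marked members lie to its left. Apoa2, at -7.03, and 434 probe sets in all lie outside the plotted range of -1 to 1.5.

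Genes around the members in lipoprotein metabolism gave no call either. 7 lists held 109 genes, of which 104 were measured, and limma called 0 of 106 probe sets other than the members, at an adjusted p of 0.05 or at an unadjusted p under 0.05, against a background of 4.92% of all probe sets at the unadjusted level. Their median difference was 0.028 relative to the median gene. The HDL maturation list had a median of -0.018 on that scale, with 4 of 10 genes above 0. Pon1 read 0.54, 0.38 and 0.29 in WT, and 0.048, 0.075 and 0.17 in HMGB2-KO, without overlap (-0.30 ± 0.14 SE, limma unadjusted p 0.0601). Lcat, which esterifies the cholesterol of HDL, differed by -0.15 ± 0.13 (SE) and Bmp1, a protease that processes pro-APOA1, by -0.16 ± 0.17 (SE).

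Of the 20 VLDL assembly and secretion genes, 10 lay above the median gene, and the list centred on 0.0042 relative to it. Tm6sf2, needed for lipidation of VLDL, read 0.14, -0.13 and -0.25 in WT, and -0.23, -0.52 and -0.65 in HMGB2-KO. WT liver 3 lay just below the highest HMGB2-KO liver, and the difference was -0.39 ± 0.18 (SE, limma unadjusted p 0.0598). The carboxylesterase gene Ces1g differed by -0.33 ± 0.21 (SE). Apobec1, which edits the Apob transcript, pointed the other way at 0.38 ± 0.30 (SE), and its WT values ran from -0.17 to 0.86.

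Among 15 receptor and uptake genes, 7 lay above the median gene, and the median of the list was -0.019 relative to it. Sort1, a sorting receptor that binds APOB, read -0.25, -0.15 and -0.38 in WT, and 0.14, 0.16 and -0.10 in HMGB2-KO, higher in all 3 (0.33 ± 0.15 SE, limma unadjusted p 0.0577, adjusted p 0.852). Cd36, a fatty acid and lipoprotein scavenger receptor, differed by 0.25 ± 0.15 (SE).

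Of the 9 plasma lipases and their regulators, 6 lay above the median gene, by 0.11 at the median of the list. Angptl6, an angiopoietin-like gene, was higher in all 3 HMGB2-KO arrays, at 0.28, 0.18 and 0.23 against -0.026, -0.022 and 0.11 (0.21 ± 0.13 SE). Lmf1, which matures lipases, differed by 0.22 ± 0.16 (SE). Lipoprotein lipase, Lpl, had the other isolated reading of the lists, -6.22 in WT liver 2 against -0.46 to 0.0071 elsewhere. Of 14 other measured apolipoprotein genes, 9 lay above the median gene (median 0.065 relative to it), with Apon at -0.24 ± 0.14 (SE), Apoh at -0.19 ± 0.16 and Saa4, a serum amyloid protein of HDL, at 0.27 ± 0.26.

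Transcription factors known to act on these genes had 0 of 32 probe sets at an unadjusted p under 0.05 in limma. Of these 32 probe sets for 30 measured transcription factor genes, 20 lay above the median gene, and their median was 0.059 relative to it. Nr0b2, the repressor SHP, had the smallest p of them, at -0.47 ± 0.26 (SE), and its HMGB2-KO values ran from -0.78 to 0.24. The liver factor gene Foxa2 differed by -0.37 ± 0.30 (SE) with WT liver 3 at 0.87. The 3 probe sets of Rora, a nuclear receptor gene, differed by -0.023 ± 0.20, -0.11 ± 0.20 and -0.22 ± 0.18 (SE). Of 13 measured LXR target genes, 5 lay above the median gene and 8 below, with a median of -0.047 relative to it. Those above were Rgs16 by 0.97, Lpcat3 by 0.21, Mlxipl and Mylip by 0.20 each, and Abcg1 by 0.14. Rgs16 ran from -0.091 to 6.00 in WT and from 0.091 to 6.93 in HMGB2-KO. The lipid desaturase gene Scd1 differed by -0.31 ± 0.16 (SE), Arl4c by -0.20 ± 0.13 with no overlap between groups, and Smpdl3a by -0.22 ± 0.15.

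Patterns over the arrays were compared with Pearson's r on median-centred values, taking for each member the best of 115 other lipoprotein genes and probe sets. With 6 arrays and a choice among so many, these values are a description, and the points share array level and genotype. Pltp was most like Pon1, with r of 0.90 centred, 0.97 as deposited and 0.96 centred without WT liver 2. Mttp was most like Cd36 (0.96 centred, 0.93 as deposited), where Cd36 read 0.35 in HMGB2-KO liver 2 against -0.17 to 0.22 elsewhere. Apoa4 was most like Cebpa, a hepatocyte transcription factor gene (0.81 centred, 0.71 as deposited), and Apob like Sar1b, which buds transport vesicles carrying lipoprotein from the endoplasmic reticulum (0.92 centred, 0.71 as deposited). Apoa5 was most like Nr2f1 (0.89 centred, 0.90 as deposited). Apoc1 was most like Ces3a at 0.89, yet at 0.57 as deposited and 0.59 centred without WT liver 2. Apoc3 was most like Foxa2 at 0.90, and at 0.43 as deposited. Apoe and Apoa1 were both most like the scaffold gene Pdzk1, at 0.995 and 0.95, yet at 0.37 and 0.14 as deposited. Without WT liver 2 the centred r of Apoa1 with Pdzk1 was 0.56. Apoa2 was most like Lpl at 0.996, and at -0.17 without WT liver 2, where both had their isolated readings.

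**Figure D5:**
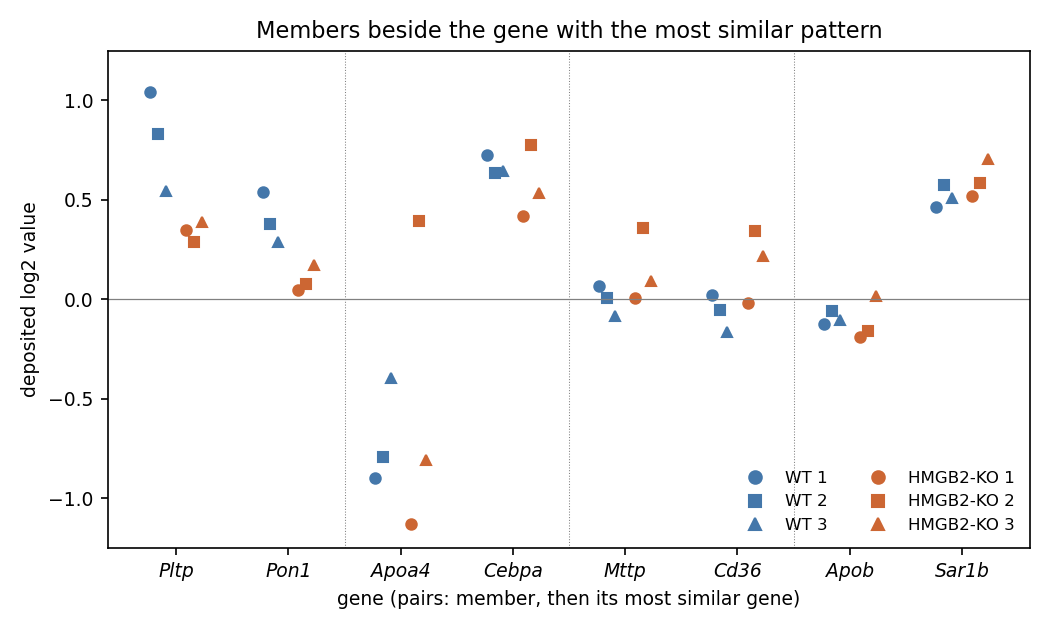
Deposited log2 values in the 6 arrays for 4 members, each beside the gene with the most similar pattern (blue WT, orange HMGB2-KO, marker shape by number in the title). Pltp and Pon1 are lower in all HMGB2-KO arrays, and Apoa4, Cebpa, Mttp and Cd36 are highest in HMGB2-KO liver 2.

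Markers of other liver cells were set beside Pltp because macrophages also express Pltp and Apoe. All 12 Kupffer cell and macrophage markers lay above the median gene. Their mean relative to the array median ran from 0.22 to 0.37 in WT and from 0.35 to 0.60 in HMGB2-KO, with overlap. As deposited, their mean ran from 0.29 to 0.47 in WT and from 0.30 to 0.55 in HMGB2-KO. Adgre1, Cd68 and Marco were lower in HMGB2-KO as deposited and the other macrophage markers higher. Of the 10 liver endothelial markers, 7 lay above the median gene. Their means relative to the array median ran from 0.65 to 0.72 in WT and from 0.76 to 0.90 in HMGB2-KO. Their medians on that scale overlapped, at 0.65 to 0.84 in WT and 0.69 to 0.92 in HMGB2-KO. As deposited, Lyve1, Oit3 and Pecam1 were higher in HMGB2-KO and the other endothelial markers lower, with a median difference of -0.075. The centred means of the 10 stellate cell markers, with 7 above, ran from 0.0066 to 0.11 in WT and from 0.021 to 0.18 in HMGB2-KO. Those of the 10 cholangiocyte markers, with 5 above, ran from -0.17 to 0.059 and from -0.10 to 0.048. The 11 leukocyte markers, with 6 above, ran from -0.032 to 0.27 and from 0.0036 to 0.17, and the 4 measured erythroid markers, with 1 above, from -0.0032 to 0.23 and from -0.065 to 0.18. The 9 intestinal markers, listed because intestine also makes Apob, Apoa4 and Mttp, had 8 above and ran from -0.16 to -0.14 in WT and from -0.14 to 0.037 in HMGB2-KO. The 9 hepatocyte markers, with 8 above, ran from -0.15 to 0.028 and from -0.026 to 0.029. Single markers at an unadjusted p under 0.05 in limma were cholangiocyte Muc1, lower (-0.41), and Spp1, higher (0.55), and endothelial Pecam1, higher (0.43). Each had an adjusted p of 0.852 in limma, and 4.92% of all probe sets met the unadjusted rule. Centred values have no zero of expression, so no marker can be said to be absent, and the part of these cell types in the Pltp difference was not tested.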

How the data were processed

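The authors deposited 1 table of 22206 probe sets and 6 array columns, read here as log2 values, which scatter around 0 gene by gene as after centring, and the series matrix holds the same numbers (largest difference 0). That scale was inferred from how far the values spread. No log base, software, background correction, summarisation or genome build is named in the sources used here. As the deposited values keep no brightness, a filter on dim probe sets was not possible. 3 probe sets without a symbol were left out and 0 columns stayed unmapped. Genotypes were compared with limma 3.58.1 (lmFit, eBayes) under R 4.3.3 over 22203 probe sets, by genotype alone, with p-values adjusted by Benjamini-Hochberg over all of them. The procedure was tested on simulated data.

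All 10 members are named. From each pathway list, up to 3 other genes with the smallest unadjusted p are named, and for each member the gene with the highest r. One gene that this choice names is not reported here. The members, lists and alternatives were chosen with earlier results of these data known. Alternatives were centring, quantile normalization, robust eBayes, averaging of probe sets of a symbol, masking of isolated values, a replicate block, a term for arrays numbered 3, and leaving out arrays. Promoter windows come from RefSeq, matched by symbol. The number of arrays limits the precision.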

Additional observations from a re-analysis of the deposited data

How the results depend on the processing

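No member reached an adjusted p of 0.05 in limma under any of 14 alternatives (smallest 0.51), and 114 of 140 combinations of member and alternative kept the sign of the difference. Many of these could not turn. Robust eBayes, averaging of probe sets, the replicate block and the term for arrays numbered 3 leave every member's difference as it was. Masking moved Apoa2 only. Pltp stayed below 0 in all 14 alternatives, from -0.59 to -0.34. As its groups stand apart as deposited, only centring and quantile normalization could have turned its sign. The count of members at an unadjusted p under 0.05 in limma was 1 as deposited, against 4.92% of all probe sets. On centred and on quantile-normalised arrays it was 0, against 3.83% of all probe sets in each. It ran from 0 to 1 with single arrays left out, where the share of all probe sets ran from 3.24% to 9.57%. The count without overlap was 1 as deposited, against 11.7% of all probe sets, and 0 after quantile normalization, against 9.88%. It ran from 1 to 3 with single arrays left out, where 18.4% to 30.9% of all probe sets did not overlap. Pltp was counted each time, as leaving out an array cannot make separate groups overlap. The others were Apoc3 and Apoa2 without WT replicate 1, Apoc1 without WT replicate 2, Mttp without HMGB2-KO replicate 1, and Apob and Apoc1 without HMGB2-KO replicate 3. The count above the median gene, 8 as deposited, was 5 on centred arrays without WT replicate 2 and ran from 5 to 9 with single arrays left out.

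Signs that turned belonged to differences near 0, apart from Apoa2 and Apoa4. On centred arrays Apoa1 stood at 0.11, Apob at 0.10, Apoc1 at 0.022, Apoc3 at 0.018 and Apoe at 0.11. After quantile normalization these 5 stood at 0.11, 0.12, 0.011, 0.021 and 0.11, and Apoa5 at 0.0091. On centred arrays without WT replicate 2, Apoa1 stood at 0.029, Apob at 0.032, Apoe at 0.023 and Apoa2 at -0.020, and with isolated values masked Apoa2 stood at -0.048. With single arrays left out, Apoa1 ran from -0.050 to 0.016, Apoa2 from -0.048 to 3.56, Apoa4 from -0.27 to 0.49, Apoa5 from -0.22 to 0.0040, Apob from -0.079 to 0.025 and Apoe from -0.014 to 0.0048. Centring subtracts the array level that most members did not share. The cause of the other turns was not tested, beyond the single readings named.

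Same-numbered arrays deviated together with r of 0.016, 0.13 and 0.27 over all probe sets for numbers 1, 2 and 3, and 5 of 6 arrays correlated best with their own number. As 1 pair lay below 0.1, the numbers were not taken as pairs. The replicate block left 1 member at an unadjusted p under 0.05 in limma, against 5.73% of all probe sets. The block changed no call. The count without overlap (1, against 11.7%) and the count above the median gene (8) do not depend on it. The series matrix gave no further setting, and the filter on dim probe sets was not run.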
